A study of Mus musculus with 34 samples.

Results

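Mitochondrially encoded transcripts were examined in sorted mouse liver cells as every row of the deposited count tables whose gene name starts with mt-. The rule found 37 of 24951 rows in the hepatocyte table, namely 13 messenger, 2 ribosomal and 22 transfer RNA rows. In the macrophage table it found 35 of 26233 rows, with the same 13 messenger and 2 ribosomal RNA rows and 20 transfer RNA rows. The rows for mt-Td and mt-Tl2 appear in the hepatocyte table alone. Together they are the 37 genes annotated on the mitochondrial chromosome.

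The series has 34 libraries of 2 cell types, 18 of hepatocytes and 16 of liver macrophages, in 8 groups. Knockout mice were Osteopontin-iCreERT2;Yap fl/fl;Taz fl/fl, and control mice were Yap fl/fl;Taz fl/fl siblings without the Cre driver, all on a mixed B6;129P background. All mice, controls included, received tamoxifen at 1.6 mg/kg on 5 days at an age of 7 to 8 weeks, followed by a washout of 3 weeks. Some then received carbon tetrachloride (CCl4) at 1 ml/kg, a toxin that kills hepatocytes near the central vein, and were harvested 48 h later, while the others received no CCl4. Macrophage groups were 4 knockout mice after CCl4, 4 control mice after CCl4, 4 knockout mice without CCl4 and 4 control mice without CCl4. Hepatocyte groups were 4 knockout mice after CCl4, 3 control mice after CCl4, 5 knockout mice without CCl4 and 6 control mice without CCl4. The driver deletes both genes in biliary epithelial cells, so neither sorted population was itself the target of the deletion. Accordingly Yap1 and Wwtr1, the gene of Taz, do not check the labels here, and Yap1 had a median of 44.3 CPM, the counts scaled to a common library total, in knockout hepatocytes without CCl4, against 36.4 CPM in control hepatocytes without CCl4. Each library is 1 mouse number and cell type, and 15 mouse numbers gave both cell types. For 2 libraries, hepatocytes of mouse 15 and macrophages of mouse 11, the labels give conflicting genotypes, and both were kept as controls.

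Library totals were 596380 to 5128587 counts in macrophages and 931496 to 7535053 counts in hepatocytes. The sequencing files carry numbers with their widest gap between 14 and 25, which splits the libraries into a first series of 7 and a second series of 27. All 7 libraries of the first series were kept as controls, 2 of them being the libraries with conflicting genotype labels, and its 5 hepatocyte libraries held 4910846 to 7535053 counts, against 931496 to 2411576 counts in the 13 hepatocyte libraries of the second series. Knockout, file series and depth are therefore partly confounded in hepatocytes. Summed over 7 macrophage markers such as Adgre1 and Csf1r, macrophage libraries held 4565 to 14641 CPM and hepatocyte libraries 5.26 to 689. Summed over 6 hepatocyte markers such as Alb and Ttr, macrophage libraries held 386 to 32946 CPM and hepatocyte libraries 57940 to 99084. All markers of a cell type were detected in every library of that type, but macrophage libraries also carried hepatocyte transcripts, most in those of knockout mice 13 and 14 after CCl4 with 32946 and 28859 CPM.

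Mitochondrial DNA encodes subunits of respiratory complexes I, III, IV and V, both RNAs of the mitochondrial ribosome and a set of transfer RNAs. Both strands are transcribed into long precursors, from which the transfer RNAs are cut out, which frees the messenger and ribosomal RNAs between them, and most messenger RNAs then receive short poly(A) tails. Hepatocytes are rich in mitochondria, which serve the urea cycle, fatty acid oxidation and gluconeogenesis. The libraries were made from poly(A) RNA with a 3′-end kit primed by oligo(dT), in which a read can start at a poly(A) tail or at a stretch of A inside a transcript.

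Sequences are shown for rows on which the results below turn, all from GENCODE release M21 transcripts on GRCm38. The first 4 are the 60-base window richest in A of each ribosomal row and of mt-Nd2 and mt-Nd4, with runs of 4 or more A in capitals, because the counts of these rows enter the ratios given by file number below. They lie at chrM:1454-1513, chrM:695-754, chrM:4816-4875 and chrM:10386-10445, all on the plus strand.
mt-Rnr2: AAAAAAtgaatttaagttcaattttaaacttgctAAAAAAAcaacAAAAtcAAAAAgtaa
mt-Rnr1: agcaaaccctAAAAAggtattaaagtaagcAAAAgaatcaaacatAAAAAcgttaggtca
mt-Nd2: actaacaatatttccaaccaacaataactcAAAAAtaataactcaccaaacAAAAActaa
mt-Nd4: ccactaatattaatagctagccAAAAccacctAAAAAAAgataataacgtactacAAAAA
These windows hold 35, 32, 34 and 32 A in the order printed. Runs of at least 6 A occur 4 times in mt-Rnr2, 3 times in mt-Nd2, 2 times in mt-Nd4 and not in mt-Rnr1, whose longest run is 5. Such runs are a description of the annotated sequence, and priming at them was not tested.

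The next 2 are the last 60 bases of mt-Co1, at chrM:6813-6872 on the plus strand, and the whole of mt-Ts1, at chrM:6870-6938 on the minus strand. They are shown because mt-Ts1 holds most transfer RNA counts and is antisense to the end of mt-Co1, with their 3 shared bases in capitals.
mt-Co1: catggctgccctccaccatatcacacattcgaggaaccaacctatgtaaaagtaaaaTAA
mt-Ts1: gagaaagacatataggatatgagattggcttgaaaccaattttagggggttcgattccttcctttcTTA
The last pair, mt-Te at chrM:14071-14139 and mt-Tn at chrM:5089-5159, both on the minus strand and without capitals, are the rows whose presence separates the file series.
mt-Te: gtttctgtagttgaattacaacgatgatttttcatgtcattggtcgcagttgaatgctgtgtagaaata
mt-Tn: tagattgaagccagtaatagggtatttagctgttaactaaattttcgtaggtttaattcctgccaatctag

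Mitochondrial rows took 6.94 to 24.7% of all counts in macrophage libraries and 19.6 to 35.1% in hepatocyte libraries. Shares of counts are given as descriptions, with no test over the rows as a set. The 13 messenger RNA rows took 3.44 to 12.9% in macrophages, with a mean of 6.66% ± 2.28 (SD, n = 16), and 10.6 to 17.3% in hepatocytes, with a mean of 14.2% ± 1.77 (SD, n = 18). The highest macrophage library, control mouse 7 without CCl4, lay within the hepatocyte range, and the other 15 macrophage libraries lay below every hepatocyte library. The ribosomal RNA rows took 2.37 to 11.7% in macrophages and 4.88 to 19.9% in hepatocytes, and these ranges overlap over most of their width. Transfer RNA rows took 0.0265 to 0.153% in macrophages and 0.0361 to 0.317% in hepatocytes. In the library with the fewest counts, macrophages of knockout mouse 17 after CCl4, the messenger share was 3.44%, with a 95% Wilson binomial interval of 3.40 to 3.49% that covers counting error only. In such bulk samples, fewer mitochondria per cell, less RNA per mitochondrion and a different mixture of cells cannot be told apart.

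By group, the messenger RNA share in macrophages averaged 4.87% ± 1.45 in knockout mice and 6.44% ± 1.36 in control mice after CCl4 (SD, n = 4 each). Without CCl4 it averaged 6.24% ± 1.51 in knockout macrophages and 9.08% ± 2.74 in control macrophages (SD, n = 4 each). In hepatocytes it averaged 13.6% ± 2.46 in knockout mice (SD, n = 4) and 13.9% ± 1.80 in control mice (SD, n = 3) after CCl4. Without CCl4 it averaged 15.1% ± 1.26 in knockout hepatocytes (SD, n = 5) and 14.1% ± 1.83 in control hepatocytes (SD, n = 6), and the ranges of the 4 hepatocyte groups overlap. Hepatocyte transcripts differed between the macrophage groups as well. Without CCl4 the 6 hepatocyte markers summed to 3806 to 12497 CPM in knockout macrophages, against 14207 to 15887 in control macrophages. After CCl4 they summed to 2828 to 32946 CPM in knockout macrophages, against 386 to 15474 in control macrophages, which overlap. There the knockout group had the lower mean messenger share and the library with the highest marker sum. Within that group, knockout mice 13 and 14, with marker sums of 32946 and 28859 CPM, had messenger shares of 5.9 and 6.3%. Mice 17 and 18, with marker sums of 3063.5 and 2828 CPM, had 3.4 and 3.8%. In control macrophages after CCl4, mice 12, 11, 15 and 16 had marker sums of 15474, 7996, 905 and 386 CPM. Their messenger shares were 6.8, 6.5, 7.9 and 4.6% in that order. These shares of single mice are from libraries thinned to the smallest total. The part of hepatocyte transcripts in the messenger share was not tested.

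**Figure D1:**
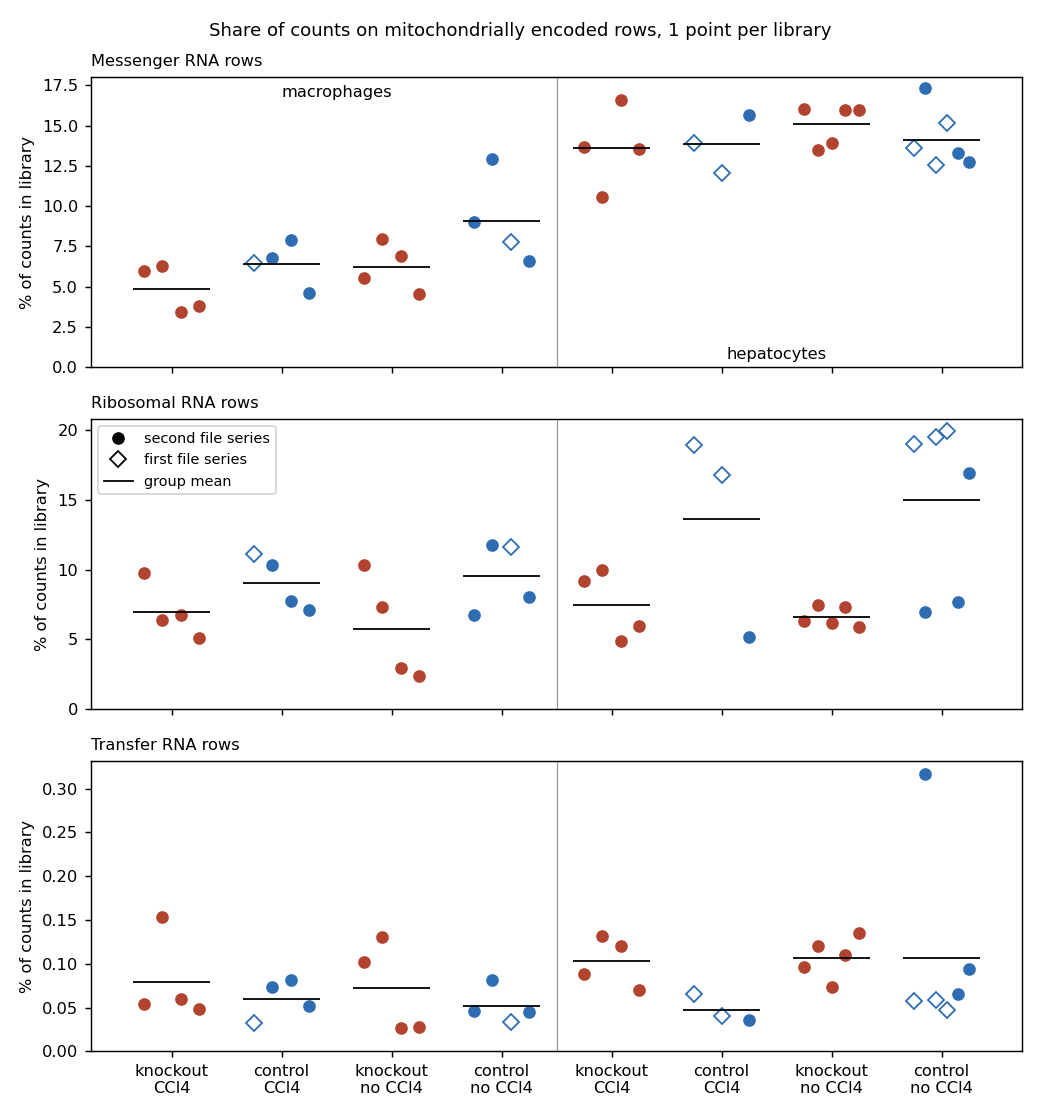
Share of all counts (%) on mitochondrially encoded messenger, ribosomal and transfer RNA rows, 1 point per library, in the 4 macrophage groups (left) and the 4 hepatocyte groups (right). Filled circles are the second file series, open diamonds the first, and lines are group means; the ribosomal share of the 5 first-series hepatocyte libraries lies at 16.7 to 19.9%, while transfer RNA rows stay under 0.317% in all but the highest library.

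The ribosomal RNA share separated the hepatocyte libraries by file series more than by group. It was 16.7 to 19.9% in the first series, with a mean of 18.8% ± 1.22 (SD, n = 5), and 4.88 to 16.9% in the second, with a mean of 7.68% ± 3.14 (SD, n = 13). Of the second series, only control mouse 19 without CCl4, at 16.9%, reached the range of the first, and its sequencing file has number 46 while those of the other 12 hepatocyte libraries run from 25 to 38. Mouse 19 had 1042896 counts, within the depths of its series. Thinning all libraries to the smallest total of their cell type left every group's share within its SD. Random thinning keeps the expected share, so it does not test the part of depth in the difference between the series.

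Ordered by file number, the make-up of the mitochondrial counts fell into 3 ranges, of which the split between 38 and 39 was chosen after the values were seen. Ribosomal counts per messenger count were 1.31 to 1.71 in the 7 libraries of the first series, 0.294 to 0.941 in the 14 libraries numbered 25 to 38, and 0.749 to 1.97 in the 13 libraries numbered 39 to 57. The ratio of mt-Nd2 to mt-Nd4 counts, which is internal to the messenger rows, was 1.04 to 1.47, 0.317 to 0.521 and 0.546 to 1.03 in these ranges, without overlap. Numbers 25 to 38 include 12 hepatocyte libraries and the macrophages of knockout mice 20 and 21 without CCl4. Numbers 39 to 57 include 12 macrophage libraries and hepatocytes of mouse 19 alone. In each case the odd library had the ratios of its number range, not of its cell type: mt-Nd2 per mt-Nd4 was 0.356 and 0.415 in macrophages of mice 20 and 21, and 0.932 in hepatocytes of mouse 19. What differed in the handling of these ranges is not given in the sources used here, and its part in the ratios was not tested.

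Within each range, both shares were lower in macrophages than in hepatocytes, apart from messenger RNA in 1 library. In the first series the messenger share was 6.48 and 7.79% in macrophages, against 12.1 to 15.2% in hepatocytes, and the ribosomal share 11.1 and 11.6% in macrophages, against 16.7 to 19.9% in hepatocytes. Among numbers 25 to 38 the messenger share was 4.54 and 6.93% in macrophages, against 10.6 to 17.3% in hepatocytes, and the ribosomal share 2.37 and 2.97% in macrophages, against 4.88 to 9.94% in hepatocytes. Among numbers 39 to 57 the messenger share was 3.44 to 12.9% in macrophages, against 12.7% in the only hepatocyte library, and the ribosomal share 5.08 to 11.7% in macrophages, against 16.9% in that library. The ranges of ribosomal share do not overlap between cell types within any range of numbers, although they overlap when pooled. The ranges of numbers hold 2, 2 and 12 macrophage libraries beside 5, 12 and 1 hepatocyte libraries, of mixed groups. Because the split between 38 and 39 was chosen after the values were seen, this separation is a description and tests no difference between cell types.

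**Figure D2:**
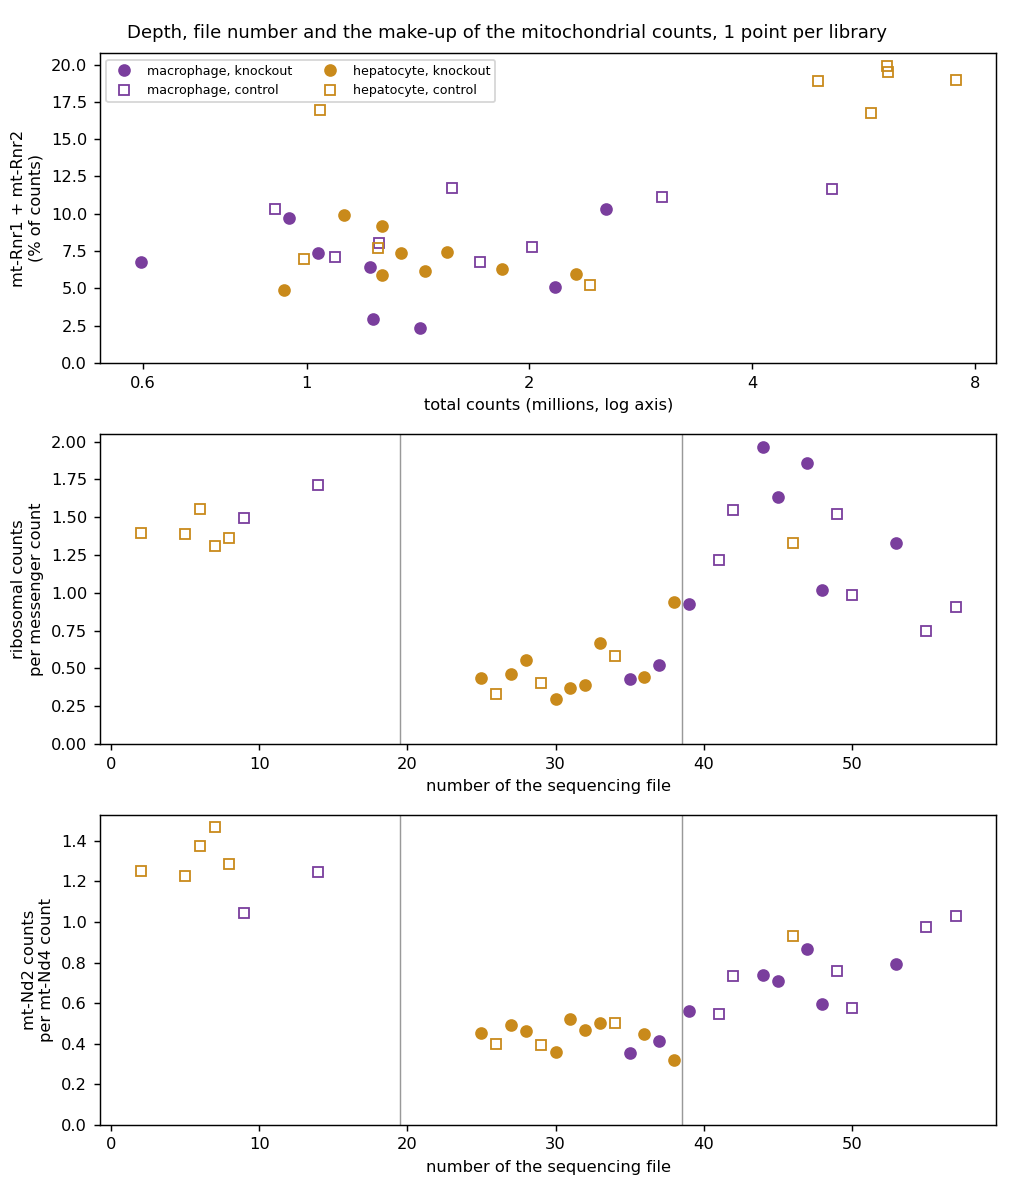
Top, ribosomal RNA share (%) against total counts (log axis); middle and bottom, ribosomal per messenger counts and mt-Nd2 per mt-Nd4 counts against the number of the sequencing file, 1 point per library, with vertical lines between the 3 ranges of file numbers. The mt-Nd2 to mt-Nd4 ratio lies at 1.04 to 1.47 in the first range, 0.317 to 0.521 in the second and 0.546 to 1.03 in the third.

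Within the mitochondrial counts, mt-Rnr2, the RNA of the large ribosomal subunit (chrM:1094-2675), was the largest row, with a mean of 42.5% of them in macrophages and 30.0% in hepatocytes. Per kilobase of annotated length, it averaged 39347 CPM in macrophages and 50150 in hepatocytes. The small subunit RNA mt-Rnr1 (chrM:70-1024) came next on this scale, with 16910 CPM per kilobase in macrophages and 29711 in hepatocytes. Among messenger rows the highest per kilobase was mt-Nd1 in macrophages, at 10346, and mt-Nd4 in hepatocytes, at 27552, both subunits of complex I. The lowest was mt-Nd4l, also of complex I, at 588 in macrophages and 1382 in hepatocytes. Counts of 3′ tags do not grow with length, so this order may differ from that of molecules. Reads may also be divided with 17 nuclear genes that match a mitochondrial row by at least 90% over at least 100 bases, whose counts came to 0.427% of the mitochondrial counts in macrophages and 0.277% in hepatocytes. The ratio of mt-Rnr2 to mt-Rnr1 counts was 2.47 to 6.05 in macrophages and 2.13 to 3.74 in hepatocytes, which overlap.

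Tests used edgeR's quasi-likelihood test with Benjamini-Hochberg adjustment over all genes that passed a filter on low counts, and a row was called when the adjusted p was under 0.05. The filter kept 25 of 37 mitochondrial rows in hepatocytes, 21 of 35 in macrophages and 25 of the 35 present in both tables in the fit of both cell types. All 15 messenger and ribosomal RNA rows passed in each. Nothing in the labels says more of the replicates than their mouse numbers, and p-values measure the spread between these mice.

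Macrophages had fewer counts than hepatocytes on nearly all messenger rows, in each of the 4 genotype and treatment groups. In knockout mice after CCl4, 16 of 25 rows were called lower in macrophages, 13 of them messenger RNAs, against 23.3% of all genes called lower. In control mice after CCl4, 16 rows were called lower, against 22.4% of all genes, and 1 higher, against 24.1%. In knockout mice without CCl4, 18 rows were lower, against 24.4% of all genes. In control mice without CCl4, 19 rows were lower, against 28.5% of all genes. The median log2 fold change over the 13 messenger rows was -1.93, -1.86, -1.69 and -1.23 in this order of groups, beside 0.05, 0.08, 0.23 and 0.14 over all genes tested. Fold changes between cell types are after TMM scaling of library totals, whose factors were higher in macrophages in every group. In control mice without CCl4 they were 1.04 to 1.17 in macrophages and 0.596 to 0.759 in hepatocytes. Such factors lower macrophage values against library totals, so the size of the fold changes depends on the scaling. Mean messenger shares given above, over library totals, were also lower in macrophages in each group. Only mt-Nd3 in control mice without CCl4, at -0.60 (SE 0.37, adjusted p = 0.150), was not called among the 13 in these comparisons.

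Among messenger rows, complex I subunits gave the lowest log2 fold change between cell types in knockout mice, and mt-Atp8 in control mice. mt-Atp8 encodes a subunit of the ATP synthase. After CCl4, mt-Nd4 (chrM:10167-11544) had 6358, 6764, 12666 and 12702 CPM in knockout macrophages, against 31852, 36908, 38872 and 52490 in knockout hepatocytes. It had 8945, 11336, 12391 and 17063 CPM in control macrophages after CCl4, against 24525, 25848 and 47529 in control hepatocytes. Both pairs of groups lie apart, by a log2 change of -2.59 (SE 0.41, adjusted p = 7.25e-06, edgeR) in knockout mice and -1.93 (SE 0.42, adjusted p = 0.00033, edgeR) in control mice. Without CCl4, mt-Nd4 had 10090, 10435, 17926 and 20745 CPM in knockout macrophages, against 42546, 43879, 45302, 46072 and 46892 in knockout hepatocytes. In control mice without CCl4 it had 14207, 15867, 17712 and 25819 CPM in macrophages, against a lowest value of 25820, a median of 29150 and a highest of 53102 in hepatocytes. The control groups without CCl4 nearly touch, at mouse 7 of the macrophages and mouse 19 of the hepatocytes.

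The complex I subunit mt-Nd6 is the only messenger RNA encoded on the other strand (chrM:13552-14070, minus). It had 813, 1058, 1214 and 1761 CPM in knockout macrophages after CCl4, against 5189, 5327, 5578 and 6837 in knockout hepatocytes after CCl4, a log2 change of -2.78 (SE 0.37, adjusted p = 4.37e-07, edgeR). In knockout mice without CCl4 it had 942, 1571, 2047 and 3361 CPM in macrophages, against 4943, 5070, 6191, 6839 and 7210 in hepatocytes. The macrophage values lie below all hepatocyte values in both. In control mice after CCl4 it had 1275, 1584, 1682 and 2157 CPM in macrophages and 3590, 5536 and 5632 in hepatocytes. Without CCl4 the control macrophages had 1902, 2993, 3094 and 3174, and the control hepatocytes a lowest of 3055, a median of 4433 and a highest of 7539, which overlap by 2 macrophage libraries.

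For mt-Nd4l (chrM:9877-10173), a short complex I subunit read from the same transcript as mt-Nd4, CPM were 65.4, 65.6, 105 and 159 in knockout macrophages after CCl4, against 338, 359, 450 and 496 in knockout hepatocytes. They were 120, 139, 152 and 164 in control macrophages after CCl4, against 396, 509 and 566 in control hepatocytes. In knockout mice without CCl4 they were 66.1, 114, 124 and 128 in macrophages, against 305, 320, 378, 419 and 439 in hepatocytes. These groups do not overlap, and the log2 fold change was -2.59 (SE 0.34, adjusted p = 4.68e-07, edgeR), -2.33 (SE 0.35, adjusted p = 3.45e-06, edgeR) and -2.39 (SE 0.33, adjusted p = 4.05e-07, edgeR) in this order. In control mice without CCl4 they were 159, 222, 392 and 615 in macrophages, against a lowest of 342, a median of 401 and a highest of 471 in hepatocytes, which overlap, with a log2 change of -0.93 (SE 0.30, adjusted p = 0.00843, edgeR).

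For mt-Atp8 (chrM:7766-7969), whose reading frame shares 43 bases with mt-Atp6, CPM were 73.8, 105, 125 and 155 in knockout macrophages after CCl4, against 201, 214, 277 and 514 in knockout hepatocytes. They were 116, 157, 182 and 299 in control macrophages after CCl4, against 233, 779 and 1053 in control hepatocytes, which overlap at 1 library each. Without CCl4 they were 52.7, 89.5, 120 and 141 in knockout macrophages, against 181, 189, 193, 195 and 196 in knockout hepatocytes. They were 103, 131, 270 and 302 in control macrophages without CCl4, against a lowest of 207, a median of 490 and a highest of 851 in control hepatocytes, which overlap. The largest log2 fold change was -2.46 (SE 0.52, adjusted p = 0.000269, edgeR), in control mice after CCl4.

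The other 9 messenger rows also had negative log2 fold changes of macrophages over hepatocytes. In knockout mice after CCl4 the cytochrome c oxidase subunits had log2 fold changes of -0.99 (mt-Co3), -1.33 (mt-Co2) and -1.64 (mt-Co1), the ATP synthase subunit mt-Atp6 had -1.47, and mt-Cytb of complex III had -2.29. Of complex I in the same mice, mt-Nd3 had -1.42, mt-Nd2 -1.81, mt-Nd1 -2.01 and mt-Nd5 -2.09. In control mice without CCl4 the range over these 9 rows was narrower, with -0.60 for mt-Nd3 and -1.57 for mt-Nd2 at its ends. Over library totals, mean mt-Nd3 in these mice was 2052 CPM in macrophages and 1947 in hepatocytes, the other direction.

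**Figure D3:**
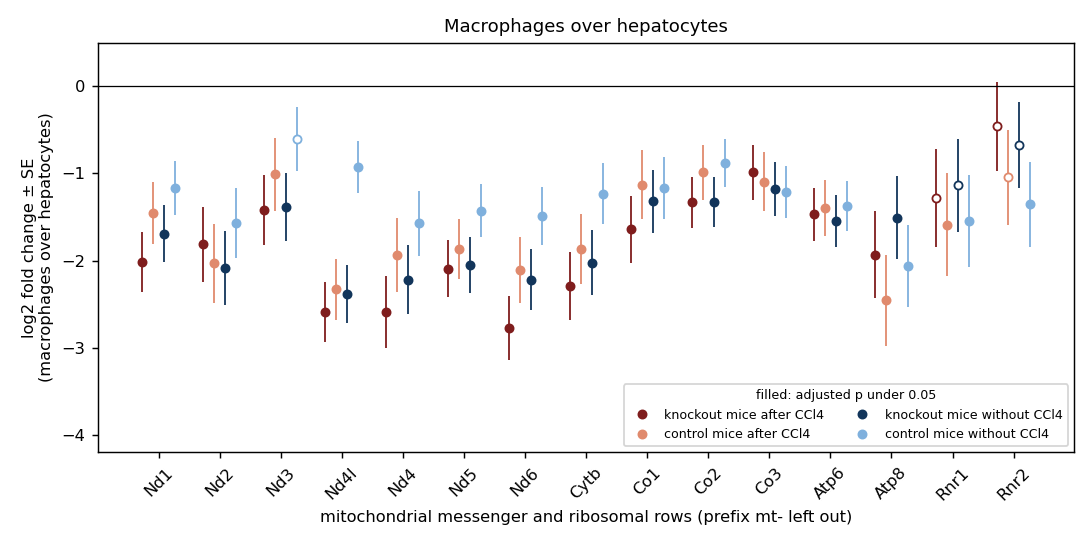
Log2 fold change of macrophages over hepatocytes (y axis, bars are SE) for the 13 messenger and 2 ribosomal RNA rows in each of the 4 genotype and treatment groups, from edgeR; filled points were called at an adjusted p under 0.05, open ones were not. The messenger rows lie below 0 in every group, and mt-Rnr2 is called in control mice without CCl4 alone.

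The ribosomal rows overlapped between the cell types in every group. mt-Rnr2 took 4.21, 5.5, 5.58 and 7.84% of counts in knockout macrophages after CCl4, against 3.65, 4.42, 6.77 and 6.97% in knockout hepatocytes after CCl4. It took 5.72, 6.40, 8.10 and 8.48% in control macrophages after CCl4, against 3.91, 11.9 and 13.7% in control hepatocytes. In knockout mice without CCl4 it took 2.02, 2.31, 6.01 and 8.36% in macrophages, against 4.51, 4.67, 4.78, 5.47 and 5.75% in hepatocytes. None of these 3 was called, with log2 fold changes of -0.46 (adjusted p = 0.478), -1.04 (adjusted p = 0.119) and -0.67 (adjusted p = 0.246) from edgeR. Over library totals, mean mt-Rnr2 in knockout mice after CCl4 was 57792 CPM in macrophages, above 54529 in hepatocytes. The fold change after TMM scaling, at -0.46, has the other direction. In control mice without CCl4 mt-Rnr2 took 5.55, 6.48, 8.36 and 8.69% in macrophages, against a lowest of 5.28, a median of 13.5 and a highest of 14.4% in hepatocytes. It was called there with a log2 change of -1.35 (SE 0.49, adjusted p = 0.0166, edgeR). With the 3 ranges of file numbers as a term, chosen after the values were seen, the log2 fold changes were -2.02, -1.27, -1.74 and -1.69, with adjusted p of 0.00462, 0.0309, 0.00139 and 0.000814 by edgeR, in the order of groups just given. The call of mt-Rnr2 in control mice without CCl4 was lost without macrophages of mouse 6, at -1.24 (adjusted p = 0.0528, edgeR), and without hepatocytes of mouse 16 it was called in control mice after CCl4, at -1.45 (adjusted p = 0.0426, edgeR). In the fit with file-number ranges the cell types are separated by few libraries within a range.

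mt-Rnr1 took 0.871, 0.908, 1.20 and 1.89% of counts in knockout macrophages after CCl4, against 1.23, 1.54, 2.19 and 3.18% in knockout hepatocytes after CCl4. It took 1.35, 1.41, 1.84 and 2.99% in control macrophages after CCl4, against 1.30, 4.87 and 5.18% in control hepatocytes. In knockout mice without CCl4 it took 0.350, 0.664, 1.34 and 1.94% in macrophages, against 1.40, 1.49, 1.51, 1.70 and 1.88% in hepatocytes. In control mice without CCl4 it took 1.20, 1.56, 2.94 and 3.38% in macrophages, against a lowest of 1.67, a median of 4.40 and a highest of 5.84% in hepatocytes. Every pair overlaps, and mt-Rnr1 was called lower in control mice after CCl4, at a log2 change of -1.59 (SE 0.59, adjusted p = 0.0271, edgeR), and without CCl4, at -1.55 (SE 0.53, adjusted p = 0.0118, edgeR). The call after CCl4 was lost without hepatocytes of mouse 12 or 15 or macrophages of mouse 12, 15 or 16, with log2 fold changes of -1.57 to -1.30. In knockout mice mt-Rnr1 was not called, at -1.28 (adjusted p = 0.0552, edgeR) after CCl4 and -1.14 (adjusted p = 0.0695, edgeR) without CCl4. It was called without CCl4 when macrophages of knockout mouse 4 were left out, at -1.62 (adjusted p = 0.0225, edgeR). It was called after CCl4 under 6 single omissions, namely hepatocytes of mouse 6, 9, 16 or 17 or macrophages of mouse 13 or 21, at -1.28 to -1.62, the last without mouse 13 (adjusted p = 0.0304, edgeR).

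Transfer RNA rows were sparse and unevenly filled. The 8 rows coded on the light strand held 96.0% of transfer RNA counts in macrophages and 93.2% in hepatocytes, and mt-Ts1 alone averaged 78.6% and 77.9% of a library's transfer counts. By total counts the leading rows in macrophages were mt-Ts1 with 13384, mt-Tq with 945, mt-Tp with 680 and mt-Te with 668. In hepatocytes they were mt-Ts1 with 27484, mt-Tq with 3139, mt-Tm with 947 and mt-Te with 883. Per 100 mt-Co1 counts, mt-Ts1 had 5.19 to 23.5 counts in macrophages and 4.41 to 20.2 in hepatocytes. In human mitochondria the messenger RNA of the mt-Co1 counterpart runs on into the antisense of this transfer RNA. The strand setting of the counting is not given in the sources used here, so reads of mt-Co1 and of mt-Ts1 cannot be told apart at their border, nor can those of mt-Nd5 and mt-Nd6, which share 14 bases on opposite strands.

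mt-Te and mt-Tn were present by file series. mt-Te had 0 counts in all 7 first-series libraries, which allows at most 0.368 CPM over the 2 macrophage libraries and 0.0986 over the 5 hepatocyte libraries, each limit being 3 counts of their pooled total. In the second series it had 12 to 110 counts in each of 14 macrophage libraries and 18 to 168 counts in each of 13 hepatocyte libraries. mt-Tn also had 0 counts in the first series, and in the second had 1 to 25 counts in each macrophage library and 0 to 14 counts in hepatocytes, with mouse 16 at 0. Such limits cover counting error only. The call of mt-Tn as higher in control macrophages after CCl4 rests on 0, 3, 5 and 12 counts there, against 0 counts in all 3 control hepatocyte libraries, of which 2 belong to the first series, so no fold is given.

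**Figure D4:**
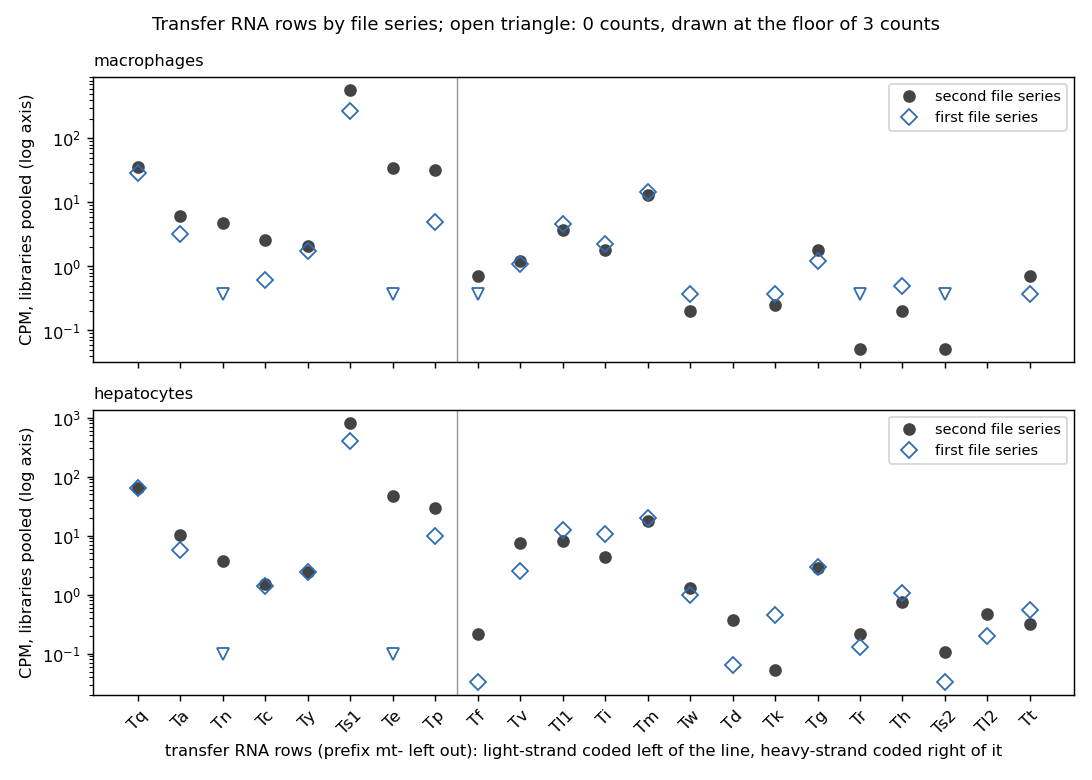
CPM (log axis) of each transfer RNA row, pooled over the libraries of the second file series (filled) and the first (open), in macrophages (top) and hepatocytes (bottom), with rows coded on the light strand left of the line. Triangles mark rows at 0 counts, drawn at the limit of 3 counts, with mt-Te and mt-Tn at 0 in the first series of both cell types.

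Among transfer rows, mt-Tv for valine was called lower in macrophages in all 4 groups, with log2 fold changes of -2.05 and -2.12 in knockout and control mice after CCl4, and -3.17 and -3.0 in knockout and control mice without CCl4. mt-Tl1 for leucine was called lower in 3, at -1.29 in control mice after CCl4, and at -2.1 and -2.31 in knockout and control mice without CCl4. mt-Tq was called lower in 3, mt-Ti in 2, and mt-Ts1, mt-Tm and mt-Ta in 1 each. The counts behind these are low, with 33 counts of mt-Tv over all macrophages and 219 over all hepatocytes.

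Nuclear genes that act on mitochondrial RNA were set beside these rows as lists, whose counts carry no test. Of 42 tested genes for mitochondrial RNA synthesis and processing, 17 were called lower and 1 higher in macrophages of knockout mice after CCl4, 14 lower and 1 higher in control mice after CCl4, 16 lower and 2 higher in knockout mice without CCl4, and 23 lower and 2 higher in control mice without CCl4. The lower ones are 40.5, 33.3, 38.1 and 54.8% of the list, beside 23.3, 22.4, 24.4 and 28.5% of all genes called lower, while 26.8, 24.1, 32.1 and 34.3% of all genes were called higher in these groups. The list's median log2 fold change was -0.77, -0.47, -0.78 and -1.02 in this order. Among them were Lrpprc, which stabilises mitochondrial messenger RNA, at -2.76 in knockout mice after CCl4 and -1.71 in control mice without CCl4, and Tfam, which packages mitochondrial DNA and starts its transcription, at -1.70 in control mice without CCl4. Of 74 mitoribosomal protein genes, 49, 28, 47 and 56 were called lower, or 66.2, 37.8, 63.5 and 75.7% of the list, and 1, 1, 2 and 2 higher in that order, with medians of -0.88, -0.56, -0.90 and -1.08. Mrpl34, of the large subunit, had -1.37 in knockout mice after CCl4 and -2.21 in control mice without CCl4.

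Within hepatocytes, both ribosomal rows and mt-Atp8 were called lower in knockout mice without CCl4, and no other row was called. The 3 called rows of 25 compare with 3.23% of all genes called lower. The values of mt-Rnr2 given above were 4.51 to 5.75% in knockout hepatocytes without CCl4, against 5.28 to 14.4% in control hepatocytes, and control mice 6 and 9, at 5.28 and 5.83%, lay beside the knockouts while the other 4 lay at 13.4% and above. Its log2 fold change was -1.41 (SE 0.34, adjusted p = 0.0165, edgeR), that of mt-Rnr1 -1.60 (SE 0.41, adjusted p = 0.0233, edgeR) and that of mt-Atp8 -1.68 (SE 0.46, adjusted p = 0.0351, edgeR). When file series was added to the model, none of the rows was called, at -0.73 (adjusted p = 0.206), -0.63 (adjusted p = 0.270) and -0.54 (adjusted p = 0.322) by edgeR. In the second series alone they were -0.87, -0.75 and -0.63, with no call. Leaving out knockout mouse 4 also ended all 3 calls, with mt-Rnr2 at -1.37 (adjusted p = 0.0512, edgeR). The call of mt-Rnr1 was lost without control mouse 2 or 8 or knockout mouse 4, 5 or 20, at -1.46 to -1.65 and an adjusted p of up to 0.0721 by edgeR. That of mt-Atp8 was lost without control mouse 2, 7 or 8 or any of the 5 knockout mice, at -1.43 to -1.71 and an adjusted p of up to 0.0936 by edgeR. Of the 4 high control libraries, 3 belong to the first series and the other, mouse 19, has file number 46. No knockout hepatocyte library lies in those ranges of numbers, so for the high values genotype and file number cannot be told apart. Control mice 6 and 9 have file numbers 29 and 34, among the 27 to 36 of the knockout libraries. Macrophage markers summed to 71.3 to 689 CPM in the knockout hepatocytes, against 5.26 to 105 in the control ones, which overlap, and their part was not tested. The other messenger rows ran from -0.75 for mt-Nd2 (adjusted p = 0.0743, edgeR) to 0.18 for mt-Nd4, and the median over all 13 was -0.38, beside 0.01 over all genes. This median weights each row alike and is after TMM scaling, with factors of 0.931 to 1.07 in knockout and 0.771 to 0.912 in control libraries. The mean messenger share given above, over library totals, was higher in the knockout hepatocytes.

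After CCl4, no mitochondrial row was called between knockout and control hepatocytes by edgeR, against 0.176% of all genes called. DESeq2 called 1, higher, and 9 of 25 rows had an unadjusted p under 0.05, with the smallest adjusted p at 0.244. The rows with the lowest fold changes were those just described, mt-Atp8 at -1.32, mt-Rnr1 at -1.03 and mt-Rnr2 at -0.99, and all 4 knockout libraries belong to the second series while 2 of 3 control libraries belong to the first. The interaction of genotype and CCl4 called no row, against 0.217% of all genes, with 0 rows at an unadjusted p under 0.05 and 0 calls by DESeq2.

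After CCl4, 3 of 25 rows were called lower in control hepatocytes, against 13.7% of all genes called lower. This is near the share of all genes and is no result about the rows as a set. All 3 were transfer RNA rows, and no messenger or ribosomal row was called. mt-Ti (chrM:3706-3774), for isoleucine, had 1.24, 4.32 and 4.89 CPM after CCl4, against a lowest of 3.20, a median of 7.20 and a highest of 20.2 without CCl4, a log2 change of -1.89 (SE 0.49, adjusted p = 0.00627, edgeR). mt-Tl1 (chrM:2676-2750) had 5.39, 6.52 and 8.63 CPM after CCl4, against a lowest of 5.75, a median of 10.3 and a highest of 17.5 without, a log2 change of -1.26 (SE 0.36, adjusted p = 0.0121, edgeR). mt-Tm (chrM:3845-3913), for methionine, had 12, 15.8 and 18 CPM after CCl4, against a lowest of 12.8, a median of 22.4 and a highest of 29.7 without, a log2 change of -0.93 (SE 0.30, adjusted p = 0.0224, edgeR). All 3 overlap between treatments, and the value of mouse 16 for mt-Ti is 3 counts. Within the first series, mt-Ti had 4.32 and 4.89 CPM after CCl4, against 7.69 to 20.2 without, and mt-Tl1 had 6.52 and 8.63, against 10.5 to 17.5, both without overlap. There mt-Tm had 12 and 18 CPM after CCl4, against 15.8 to 27.0 without, which overlap. Of these first-series libraries after CCl4, that of mouse 15 has conflicting genotype labels. The call of mt-Tm was lost without mouse 12 or 16 after CCl4 or mouse 2 or 7 without CCl4, at -0.80 to -0.92 and an adjusted p of up to 0.105 by edgeR, and that of mt-Tl1 without mouse 16 after CCl4, at -1.12 (adjusted p = 0.0506, edgeR). mt-Ti shares 2 bases with mt-Nd1 and 3 with mt-Tq on the other strand. Adding file series to the model gave log2 fold changes of -2.03, -1.32 and -0.95, with 6 rows called. Marker sums of other cells also differed between these treatments. Macrophage markers summed to 211, 212 and 215 CPM after CCl4, against 5.26 to 105 without CCl4, and do not overlap. Stellate cell markers summed to 260 to 800 CPM after CCl4, against 9.37 to 260 without, and biliary markers to 82.1 to 237, against 27.6 to 84.4, which overlap. Their part in the transfer rows was not tested.

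The same contrast in knockout hepatocytes, all of the second series, called mt-Tm and mt-Tl1 lower, 2 of 25 rows, against 6.84% of all genes called lower. Again this is near the share of all genes and no result about the rows as a set. mt-Tm had 6.48, 9.50, 12.5 and 12.9 CPM after CCl4, against 15.9, 18.2, 20.2, 28.3 and 38.1 without, which do not overlap, at a log2 change of -1.54 (SE 0.33, adjusted p = 0.00333, edgeR). mt-Tl1 had 1.78, 3.89, 4.29 and 7.13 CPM after CCl4, against 5.53, 7.46, 12.5, 13.5 and 18.1 without, at -1.69 (SE 0.45, adjusted p = 0.0148, edgeR), with 1 library of each group overlapping. The call of mt-Tl1 was lost without knockout mouse 18 after CCl4, at -1.57 (adjusted p = 0.0695, edgeR). Messenger rows had a median of -0.34 in knockout and -0.40 in control hepatocytes, beside -0.02 and -0.01 over all genes, and in control mice the lowest was mt-Co1 at -0.85 (adjusted p = 0.0529, edgeR).

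Of nuclear genes for mitochondrial RNA in hepatocytes, CCl4 lowered 6 of 39 in control mice, 15.4% beside 13.7% of all genes, with Ppargc1b, a coactivator of mitochondrial genes, at -1.78 and Hsd17b10, a subunit of mitochondrial RNase P, at -1.22. In knockout mice it lowered 2 of 39, 5.13% beside 6.84% of all genes, namely Ppargc1b at -1.31 and Fastkd1 at -1.25, and the list medians were -0.12 in knockout and -0.13 in control mice. Mitoribosomal protein genes gave 4 higher and 1 lower of 74 after CCl4 in knockout mice, 5.41 and 1.35% beside 7.02% of all genes called higher and 6.84% lower. In control mice they gave 3 higher and 5 lower, 4.05 and 6.76% beside 13.7% of all genes in each direction. In knockout mice without CCl4, 1 of 39 was called lower than in controls, 2.56% beside 3.23% of all genes. It was Mterf3, which acts on mitochondrial transcription, at -1.19 (SE 0.29, adjusted p = 0.0180, edgeR). Also called lower were 3 of 74 mitoribosomal protein genes, or 4.05%, Mrpl10 at -0.97, Mrps2 at -0.53 and Mrps5 at -0.52. File series is partly confounded with knockout here, and these genes were not followed in the fit with a series term. These shares lie near or below those of all genes and are no result about the lists.

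In macrophages, mt-Nd4l alone was called lower after CCl4 in control mice, 1 of 21 rows, against 6.39% of all genes called lower. This too is near the share of all genes and no result about the rows as a set. The values of mt-Nd4l, given above, were 120 to 164 CPM after CCl4 and 159 to 615 without CCl4, with 1 library of each group overlapping. The log2 fold change was -1.54 (SE 0.39, adjusted p = 0.0159, edgeR), and without control mouse 7 without CCl4, the highest library, it was -1.04 (adjusted p = 0.0599, edgeR). Within the second series alone it was -1.68 (adjusted p = 0.0335, edgeR). The 13 messenger rows had a median of -0.80, beside -0.03 over all genes, with mt-Cytb at -1.09 (adjusted p = 0.0502, edgeR) and mt-Co3 at -0.15 as their ends among the other rows. In the same comparison 7 of 73 mitoribosomal protein genes rose, 9.59% beside 6.77% of all genes called higher, among them Mrpl28 at 1.48 and Mrpl1 at 1.41, and none fell, while 1 of 37 RNA genes rose, Rexo2 at 0.77. Hepatocyte markers summed to 386 to 15474 CPM after CCl4, against 14207 to 15887 without CCl4, macrophage markers to 5340 to 8347 CPM after CCl4, against 9469 to 12667 without, and neutrophil markers to 127 to 266 CPM after CCl4, against 62.6 to 113 without. The part of these transcripts in the fold of mt-Nd4l was not tested.

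Knockout macrophages without CCl4 had no row called by edgeR, against 0.166% of all genes, though 11 of 21 rows had an unadjusted p under 0.05 and DESeq2 called 2. The smallest adjusted p was 0.0564, for mt-Nd4l, at a log2 change of -1.90 (SE 0.40, edgeR). It had 66.1, 114, 124 and 128 CPM in knockout macrophages, against 159, 222, 392 and 615 in control macrophages, which do not overlap. All 13 messenger rows had a negative log2 fold change, from -0.44 for mt-Nd1 to -1.90 for mt-Nd4l, with a median of -0.73 beside -0.01 over all genes. Knockout mice 20 and 21 have file numbers 35 and 37, the other 2 knockout and 3 of the 4 control libraries lie in numbers 39 to 57, and hepatocyte markers were lower in the knockout macrophages, as given above. Other lists that separate these groups are neutrophil markers, at 205 to 297 CPM in knockout macrophages against 62.6 to 113 in control macrophages, stellate cell markers, at 613 to 3218 CPM against 192 to 553, and RNAs retained in the nucleus, at 4469 to 7961 CPM against 7986 to 13876. Their part in the fold changes was not tested.

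The remaining macrophage comparisons called no row. After CCl4, knockout against control macrophages had 2 of 21 rows at an unadjusted p under 0.05 and 0 calls by DESeq2, against 0.0647% of all genes called by edgeR, with a messenger median of -0.47. CCl4 in knockout macrophages had 4 rows at an unadjusted p under 0.05, 0 calls by DESeq2, 0.878% of all genes called and a messenger median of -0.34. The interaction had 1 such row, 0 calls by DESeq2, 0.194% of all genes called and a messenger median of 0.42. These misses do not show that the groups are alike, and the fold changes are drawn in the map of the within-cell-type comparisons.

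**Figure D5:**
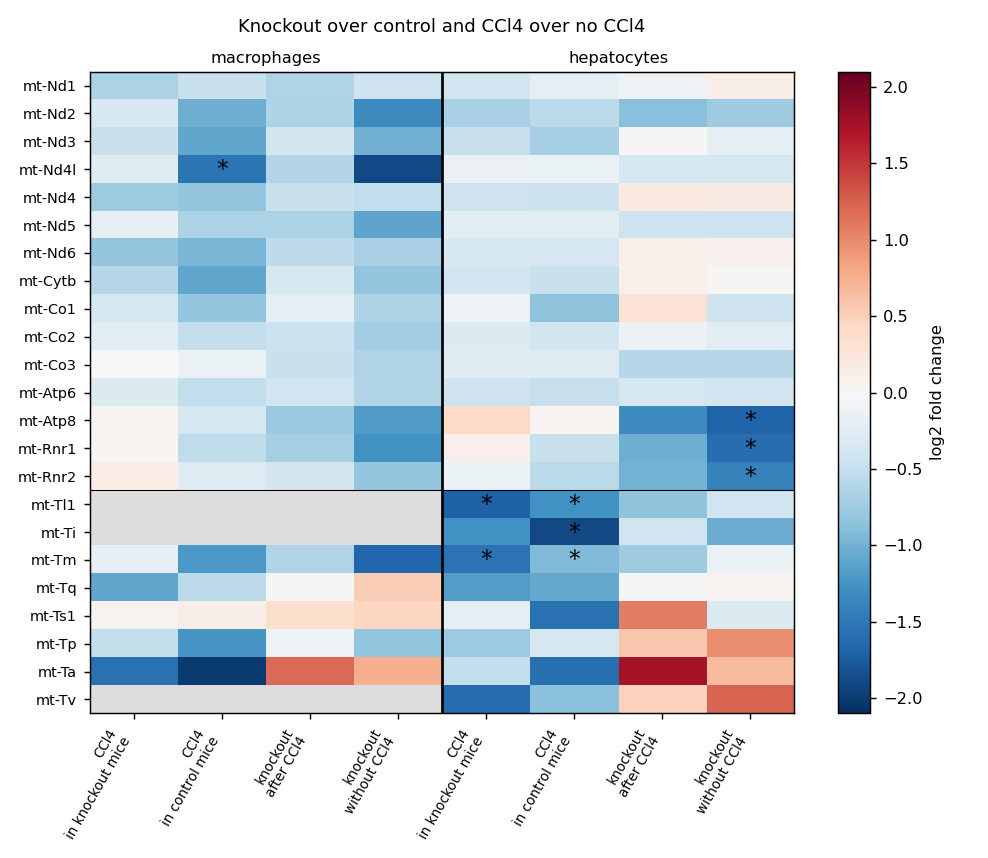
Log2 fold changes from edgeR of the messenger and ribosomal rows and 8 transfer rows (colour scale from -2.1 to 2.1) in 4 comparisons within macrophages (left) and 4 within hepatocytes (right), with asterisks at rows called at an adjusted p under 0.05 and grey for rows not tested. mt-Te and mt-Tn are left out because they are at 0 in the first file series. Called rows are few, and in macrophages mt-Nd4l is the only one.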

How the data were processed

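The members and lists were chosen with earlier results of these data known. Libraries of sorted macrophages and hepatocytes were made with the QuantSeq 3′ FWD kit and sequenced as single reads of 50 bases, per the labels' protocols. The submitters' processing notes name Trimmomatic 0.39, HISAT2 2.1.0 and the build GRCm38/mm10. The authors deposited raw counts per gene symbol and library, in 1 table for each cell type. No source used here gives the counter, its annotation or whether it used strand. The file numbers come from the authors' deposited sample tables.

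Here, edgeR 4.0.16 quasi-likelihood fits with filterByExpr, TMM scaling and Benjamini-Hochberg adjustment were run in each cell type over its 4 groups, and over both cell types and 8 groups, testing 10815, 9679 and 12052 genes in macrophages, hepatocytes and both. Rows of both tables were matched by symbol for the fit of both. Fits were tested on simulated data. Shares are counts over the library total, with 95% Wilson binomial intervals. Library totals were 596380 to 7535053.

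Alternatives were RLE scaling, scaling by nuclear rows, no filter, DESeq2 1.42.0, file series or file-number range as a term, the second series alone, the 2 libraries with conflicting labels moved or left out, thinning, a mouse-number block and leaving out each library. The fit with file-number ranges and the one leaving out both conflicting libraries were added after the values were seen. All messenger and ribosomal rows were named, and of transfer rows the 4 of highest total count in each cell type and those called; values in every library were given for mt-Rnr1, mt-Rnr2 and up to 2 called messenger rows of lowest or highest fold change in each comparison. Of the nuclear lists, up to 4 called genes of lowest p could be named. Sequences are GENCODE M21 transcripts.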

Additional observations from a re-analysis of the deposited data

Results flagged for a closer look

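The messenger, ribosomal and transfer shares and the CPM of 7 rows were examined in each group of 4 to 6 libraries. Control hepatocytes after CCl4, with 3 libraries, were not examined. Of these 70 combinations of measure and group, which share counts, 2 held a library that stood apart from the others of its group. The rule was the gap to its nearest neighbour, and chance flags about 1 in 20. Both concern the transfer RNA share. In macrophages of knockout mice after CCl4, mouse 14 had 0.153% of counts on transfer RNA rows, against 0.0488 to 0.0602% in the other 3 libraries, with mt-Ts1 at 1356 CPM in mouse 14 and 407 to 485 in the others. In hepatocytes of control mice without CCl4, mouse 6 had 0.317%, against 0.0470 to 0.0940% in the other 5 libraries, with mt-Ts1 at 2780 CPM in mouse 6 and 326 to 724 in the others. mt-Co1, whose end is antisense to mt-Ts1, was also highest in hepatocytes of mouse 6, at 13762 CPM.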

How the results depend on the processing

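No row called within a cell type changed direction under these alternatives, nor did mt-Rnr1 or mt-Rnr2 where called between cell types. Other rows called between cell types were followed only as counts of rows called higher and lower. mt-Rnr2 in control macrophages over control hepatocytes after CCl4, not called at -1.04, was 0.33 in the second series alone, where 1 hepatocyte library remains. With mouse number as replicate block, macrophages over hepatocytes gave 14, 14, 20 and 18 calls in knockout mice after CCl4, control mice after CCl4, knockout mice without CCl4 and control mice without CCl4, beside 16, 17, 18 and 19 without the block. The main fits did not use the numbers to pair libraries. Deviations of same-numbered libraries from their group means correlated by -0.136 to 0.357 over 7790 genes, with 8 of 15 pairs over 0.1. These correlations were not set beside those of libraries with different numbers, so they cannot decide whether a shared number is the same mouse. No paired analysis was possible within a cell type because its groups share no mouse number. Counts of called rows moved as follows. For CCl4 in control hepatocytes, 3 became 8 with DESeq2, 6 with the series term, 7 with file-number ranges and 0 in the second series alone, which leaves 1 control library after CCl4. For knockout hepatocytes without CCl4, 3 became 1 without a filter, 5 with DESeq2 and 0 with the series term, with the ranges and in the second series. For knockout hepatocytes after CCl4, 0 became 1 with DESeq2. For CCl4 in knockout hepatocytes, 2 became 4 with the series term and with the ranges. For CCl4 in control macrophages, 1 became 8 without a filter, 2 with DESeq2, 3 with the series term and 4 with the ranges. For knockout macrophages without CCl4, 0 became 7 without a filter, 2 with DESeq2 and 1 with the series term. For CCl4 in knockout macrophages, 0 became 1 without a filter. For control macrophages over control hepatocytes after CCl4, 17 became 8 in the second series. The ribosomal share of control hepatocytes after CCl4 was 5.21% in the second series, from 1 library, beside 13.6%. The cause of these changes was not tested. Leaving out each library in turn gave 0 to 6 calls for knockout hepatocytes without CCl4 (0 without knockout mouse 4, 6 without control mouse 9), 2 to 4 for CCl4 in control hepatocytes, 1 to 3 for CCl4 in knockout hepatocytes, 0 to 4 for CCl4 in control macrophages (0 without control mouse 7, 4 without control mouse 9), and 0 to 1 for knockout macrophages without CCl4. Both interactions and the other 3 within-cell comparisons gave 0 to 0. Macrophages over hepatocytes gave 14 to 17, 11 to 18, 17 to 20 and 18 to 20 in the order above, with 11 without hepatocytes of mouse 12. Of single called rows, mt-Tm in control hepatocytes lost its call with the conflicting libraries moved, at -1.11 (adjusted p = 0.0502, edgeR). Of 22 transfer rows, 12 failed the filter on low counts in hepatocytes.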

Other observations

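Gm28438, a nuclear gene annotated with 99.71% identity to mt-Nd3 over 345 bases, held 9046 counts in macrophages and 13829 in hepatocytes, the most of the 17 nuclear genes that match a mitochondrial row. Its counts per 100 mt-Nd3 counts ran from 0.897 to 45.2 over macrophage libraries and from 1.12 to 51.3 over hepatocyte libraries. Mouse 20 had 0.897 in macrophages and 1.81 in hepatocytes, and mouse 14 had 2.66 in macrophages and 5.61 in hepatocytes. Mouse 9 had 39.6 in macrophages and 51.3 in hepatocytes, and mouse 21 had 33.5 in macrophages and 36.6 in hepatocytes. Other mice differed between their cell types, with 15.8 in macrophages and 36.0 in hepatocytes of mouse 4, 45.2 and 27.5 in those of mouse 6, and 13.2 and 30.1 in those of mouse 18. Whether the value goes with the mouse was not tested. Hepatocytes of mouse 19, for which no macrophage library was analysed here, had 1.12. In mice 7, 12 and 15, whose hepatocytes are of the first series and macrophages of the second, macrophages had 35.4, 17.5 and 25.1 and hepatocytes 4.30, 4.99 and 7.6.

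Further ratios within the mitochondrial counts are given by range of file numbers, and these ranges of values overlap. Numbers 25 to 38 and 39 to 57 hold mostly different cell types. mt-Atp8 counts per 100 mt-Atp6 counts were 4.64 to 10.2 in the 7 first-series libraries, 1.38 to 9.77 in numbers 25 to 38, where hepatocytes of knockout mouse 14 alone reached 9.77, and 1.85 to 3.18 in numbers 39 to 57. The ratio of mt-Nd6 to mt-Nd5, which share bases on opposite strands, was 0.786 to 1.5 in the first series, 1.13 to 3.05 in numbers 25 to 38 and 0.982 to 1.88 in numbers 39 to 57. The mt-Rnr2 to mt-Rnr1 ratio was 2.34 to 2.95, 2.13 to 5.77 and 2.47 to 6.05 in these ranges.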
